A study of Oryza sativa with 12 samples.

Results

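A total of 88 probe sets, of 57194 on the rice array that are not controls, had a low signal only in the florets of the male-sterile group, Co27HT. They were chosen from the measured values themselves: the mean log2 signal of the 3 Co27HT arrays lay at least 1 unit below the mean of each of the other 3 groups, those 3 means were at least 7, and every Co27HT array lay below all 9 other arrays. The probe set of Ugp1, the gene the transgene was built from, also met these conditions and was left out. Because the values chose the probe sets, every difference of these 88 from Co27HT is a description and carries no test. Of the 88 probe sets, 58 are assigned to a gene (53 through the array's annotation and 5 through a locus in the supplementary tables of the study), which makes 54 genes, and 30 are not. Some of the 54 carry only a gene identifier and no description.

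The arrays came from meiosis-stage inflorescences of rice, with florets 2 to 3 mm long. TGMS-Co27 is a single transgenic line that over-expresses a Ugp1 construct with the Ubi1 promoter and intron, so that Ugp1 is cosuppressed. It was made in the japonica variety H1493 (Hejiang 19), which is the wild type here. The groups were H1493HT and Co27HT, grown in a summer field at a daily mean of 28°C, and H1493LT and Co27LT, grown in a winter paddy at 20°C, with 3 biological replicates and 3 arrays in each. Co27HT was male sterile and the other 3 groups were fertile. Temperature, day length, site and season differed together and cannot be told apart. In whole florets, fewer cells of a type and less RNA per cell cannot be told apart either.

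Several of the 54 genes belong to processes that light and temperature are known to control. Chlorophyll is made in the plastid by a chain of enzymes, bound by light-harvesting proteins and used to feed electrons and then carbon fixation. The circadian clock sets the time of day at which many such genes are transcribed. JAZ proteins repress jasmonate signalling, a pathway that stamens need for filament growth and pollen release.

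Across the 88 probe sets the median signal was 7.27 in Co27HT, 8.78 in H1493HT, 10.03 in H1493LT and 10.08 in Co27LT (log2). The nearest of the 3 fertile groups was H1493HT for 85 probe sets, Co27LT for 2 and H1493LT for 1. The median gap above Co27HT was 1.16 for H1493HT, 2.27 for H1493LT and 2.10 for Co27LT. The gap to H1493HT reached 2 log2 units for 3 probe sets, while that to H1493LT did so for 57 and that to Co27LT for 49. So most of these genes had a graded profile, with Co27HT lowest, H1493HT next and both low-temperature groups highest, rather than 1 low group and 3 equal ones. The smallest of the 3 gaps lay between 1 and 1.25 for 56 probe sets, between 1.25 and 1.5 for 17 and at 1.5 or more for 15.

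**Figure D1:**
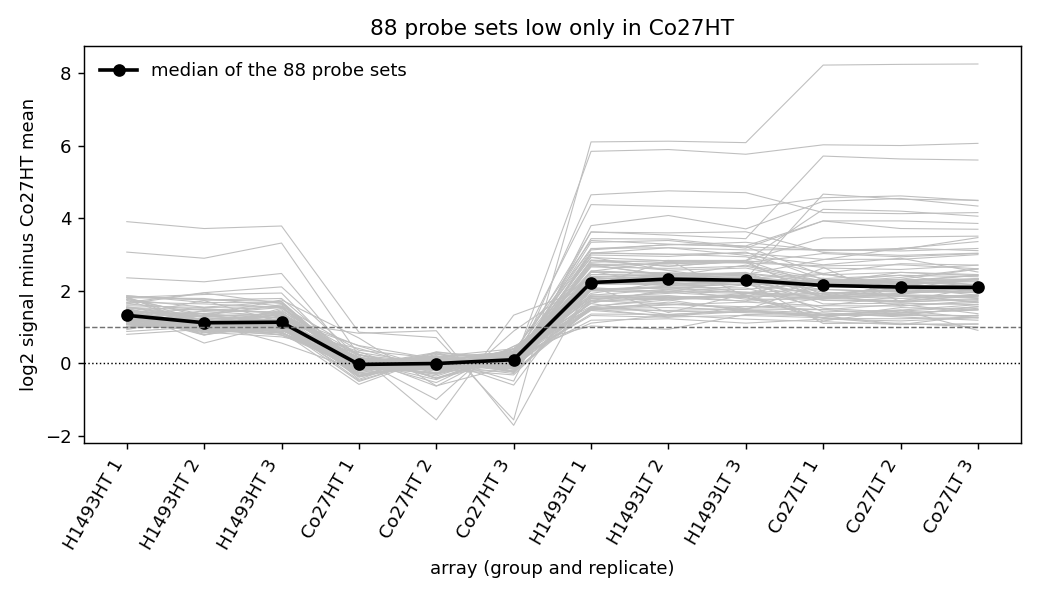
Log2 signal of each of the 88 probe sets minus its Co27HT mean (grey lines, y axis) on each of the 12 arrays (x axis), with the median (black); the dashed line marks the gap of 1 that the rule used. The median steps from Co27HT to H1493HT by about the rule's gap, and to both low-temperature groups by about 2 log2 units.

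The replicate spread was widest where the signal was lowest. The median SD over the 88 probe sets was 0.22 in Co27HT, 0.16 in H1493HT, 0.08 in H1493LT and 0.09 in Co27LT, against 0.11, 0.10, 0.07 and 0.08 over the 19633 probe sets whose means in the 3 fertile groups were at least 7. All 88 were called present on every low-temperature array, 86 on every H1493HT array and 73 on every Co27HT array, and 7 were called present on no Co27HT array. Single high-temperature arrays of either line decided part of the membership. Without Co27HT replicate 3 the same rule took 129 probe sets, 76 of them among the 88. Without H1493HT replicate 1 it took 73, with 67 among the 88.

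Genes of chlorophyll and the photosystems included 4 of the named members. CAB2R encodes a light-harvesting chlorophyll a/b-binding protein. Its log2 signals were 9.73, 9.54 and 9.44 in Co27HT, 11.25, 11.52 and 11.68 in H1493HT, 14.22, 14.33 and 14.28 in H1493LT, and 13.73, 13.70 and 13.73 in Co27LT. The 4 groups did not overlap, and the H1493HT mean was 3.78-fold above that of Co27HT. In the wild type alone, CAB2R rose by 2.79 ± 0.12 (log2 difference ± SE) from H1493HT to H1493LT, a 6.91-fold change (limma, adjusted p = 9.7e-07).

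PORA, the light-dependent protochlorophyllide reductase of chlorophyll synthesis, read 9.86, 9.67 and 9.64 in Co27HT, 11, 11.15 and 11.03 in H1493HT, 12.17, 12.19 and 12.19 in H1493LT, and 11.58, 11.57 and 11.60 in Co27LT. CAO, chlorophyllide a oxygenase, which makes chlorophyll b, read 8.26, 8.49 and 8.24 in Co27HT, 9.44, 9.66 and 9.45 in H1493HT, 10.36, 10.46 and 10.51 in H1493LT, and 10.07, 10.02 and 10.12 in Co27LT. Both enzymes followed the same order of groups as CAB2R, with no overlap between any of the groups. PORA rose 2.18-fold in the wild type at low temperature (1.13 ± 0.09, limma, adjusted p = 1.8e-05). CAO differed there by 0.93 ± 0.11, below the 2-fold threshold although its limma adjusted p was 0.00015.

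LOC_Os04g33830, described as a membrane protein and matched in the supplementary tables to Arabidopsis PsaO, a photosystem I subunit, had means of 9.64 ± 0.18 in Co27HT, 10.66 ± 0.03 in H1493HT, 12.47 ± 0.04 in H1493LT and 11.72 ± 0.06 in Co27LT (SD, n = 3). Its low-temperature rise in the wild type was 3.50-fold (1.81 ± 0.10, limma, adjusted p = 3.2e-06). For CAB2R, PORA, CAO and LOC_Os04g33830, every Co27LT array lay below every H1493LT array, by mean differences of -0.55, -0.60, -0.38 and -0.75. None of these reached the 2-fold threshold, and the limma adjusted p-values were 0.08, 0.011, 0.17 and 0.0071. Among all members, 37 had every Co27LT array below every H1493LT array and 18 had every one above. The separation was thus not particular to these genes, and its share over all probe sets was not counted. LOC_Os04g33830 was also chosen after its values were seen.

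CAB2R, PORA and CAO belong to the list of chlorophyll and photosystem genes, while LOC_Os04g33830 and the next 3 genes belong to no list. LOC_Os04g16680, described as a fructose-1,6-bisphosphatase and matched to the Arabidopsis sedoheptulose bisphosphatase of the Calvin cycle, read 7.41, 7.04 and 6.32 in Co27HT, 8.07, 8.10 and 8.12 in H1493HT, 9.18, 9.06 and 9.17 in H1493LT, and 8.02, 8.03 and 7.92 in Co27LT. Here Co27LT stood at the level of H1493HT rather than that of H1493LT. It was the single member called lower in Co27LT than in H1493LT, by 1.15 ± 0.23 log2 units (a 2.22-fold difference, limma, adjusted p = 0.045), and the call was lost in 13 of 21 other settings, among them the loss of any 1 low-temperature array and of any 1 H1493HT array.

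LOC_Os03g19560, a tetratricopeptide repeat protein matched to Arabidopsis HCF107, which stabilises a plastid photosystem transcript, had means of 7.49 ± 0.16 in Co27HT, 8.90 ± 0.13 in H1493HT, 10.28 ± 0.09 in H1493LT and 9.57 ± 0.50 in Co27LT (SD, n = 3). MRS2-A, a magnesium transporter of the CorA type, had means of 9.28 ± 0.09, 10.35 ± 0.05, 11.10 ± 0.06 and 11.07 ± 0.06 in the same order of groups. MRS2-A was nearly equal in both lines at low temperature, with a difference of -0.03 and a 95% interval of -0.22 to 0.16.

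Co27HT was followed by H1493HT and then by both low-temperature groups in the clock and light-signalling members too. LHY, a MYB transcription factor of the morning loop of the circadian clock, read 10.64, 10.84 and 10.90 in Co27HT, 12.01, 11.92 and 11.97 in H1493HT, 13.97, 13.99 and 13.93 in H1493LT, and 13.94, 13.90 and 13.97 in Co27LT. Both low-temperature groups overlapped, at a difference of -0.03 (95% interval -0.23 to 0.18), and the wild type rose 3.98-fold from high to low temperature (limma, adjusted p = 9.7e-07). The hour of harvest is not given in the sources used here, and its part in the LHY values was not tested.

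LOC_Os08g08120, a B-box zinc finger protein of a family that works in light signalling, had means of 9.83 ± 0.21 in Co27HT, 10.88 ± 0.03 in H1493HT, 11.34 ± 0.03 in H1493LT and 11.12 ± 0.10 in Co27LT (SD, n = 3). It was one of the flatter members among the fertile groups. LOC_Os07g48570, matched to Arabidopsis CDF2, a DOF factor that represses CONSTANS there, had means of 7.76 ± 0.24, 8.83 ± 0.11, 10.50 ± 0.05 and 10.76 ± 0.05 in the same order and rose 3.19-fold in the wild type at low temperature (limma, adjusted p = 1.5e-05).

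JAZ13, a member of the jasmonate ZIM-domain repressor family, read 6.36, 6.56 and 6.49 in Co27HT, 8.11, 8.41 and 8.12 in H1493HT, 8.56, 8.44 and 8.80 in H1493LT, and 11.14, 11 and 10.97 in Co27LT. The 2 wild-type groups lay close together, and the 2 groups of TGMS-Co27 lay on either side of them. JAZ13 in Co27LT exceeded its H1493LT level by 2.43 ± 0.13, or 5.40-fold (limma, adjusted p = 3.7e-05), with no overlap of arrays, and its wild-type difference between temperatures, 0.39 ± 0.13, was not called (limma, adjusted p = 0.053).

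LOC_Os08g36920, an AP2-domain transcription factor matched to Arabidopsis ERF109, read 6.09, 6.44 and 5.89 in Co27HT, 6.94, 7.08 and 7.66 in H1493HT, 9.77, 9.68 and 9.58 in H1493LT, and 11.86, 11.78 and 11.75 in Co27LT. Its Co27LT level exceeded that of H1493LT by 2.12 ± 0.20 (4.34-fold, limma, adjusted p = 0.00091) and higher in H1493LT than in H1493HT by 2.45 ± 0.20 (5.46-fold, limma, adjusted p = 2.1e-05). LOC4341678, which carries no description here, was the third member called higher in Co27LT, by 1.40 ± 0.12 over H1493LT (2.65-fold, limma, adjusted p = 0.00066), with means of 6.04 in Co27HT, 7.05 in H1493HT, 8.81 in H1493LT and 10.21 in Co27LT. All 3 of these kept their call in each of 21 other settings.

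Another AP2-domain gene, LOC_Os09g11460, matched to the hypoxia-responsive Arabidopsis factor HRE1, went the other way at low temperature: its Co27LT mean of 11.61 ± 0.02 was below the H1493LT mean of 12.30 ± 0.09 (SD, n = 3) with no overlap. That difference of -0.69 was below the 2-fold threshold (limma, adjusted p = 0.011). HSFB2C, a class B heat shock factor, had means of 6.66 ± 0.36 in Co27HT, 7.80 ± 0.32 in H1493HT, 8.99 ± 0.03 in H1493LT and 8.16 ± 0.10 in Co27LT. DAO, named in the array's annotation for a dioxygenase that inactivates auxin and described in the supplementary tables as a gibberellin 20 oxidase, was called present on no Co27HT array and on all 9 others, with means of 8.32 ± 0.42, 9.46 ± 0.26, 9.95 ± 0.11 and 10.24 ± 0.15 in the same order. LOC_Os04g54230, described as wound-induced, had the second largest smallest gap of the 88: it read 5.35, 5.68 and 5.19 in Co27HT, 7.77, 7.66 and 7.89 in H1493HT, 8.54, 8.69 and 8.65 in H1493LT, and 9.34, 9.13 and 9.11 in Co27LT, so that H1493HT stood 5.15-fold above Co27HT.

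BC1L9 encodes a COBRA-like protein, a family anchored at the plasma membrane and known for orienting cellulose deposition in the cell wall. It read 6.86, 7.17 and 7.0 in Co27HT, 8.85, 8.76 and 8.72 in H1493HT, 12.86, 12.91 and 12.78 in H1493LT, and 13.04, 13.02 and 13.08 in Co27LT. The wild-type rise from high to low temperature, 4.08 ± 0.10 or 16.9-fold (limma, adjusted p = 7.3e-08), was the largest of the 88. At low temperature both lines were within 0.19 of each other (95% interval -0.03 to 0.42).

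U2AF35A encodes the small subunit of the splicing factor U2AF, which recognises the 3′ end of introns. It was called present on no Co27HT array and on all 9 others, and read 7.14, 7.33 and 7.16 in Co27HT, 9.08, 8.89 and 8.88 in H1493HT, 10.65, 10.64 and 10.43 in H1493LT, and 9.65, 9.72 and 9.63 in Co27LT. The 4 groups did not overlap. U2AF35A rose 3.07-fold in the wild type at low temperature (1.62 ± 0.10, limma, adjusted p = 6.1e-06). The Co27LT mean was 0.90 ± 0.10 below that of H1493LT, with a limma adjusted p of 0.0028 but under the 2-fold threshold.

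LOC_Os08g27824, of the NOL1/NOP2/sun family of RNA methyltransferases, read 7.36, 7.15 and 7.32 in Co27HT, 8.97, 8.92 and 8.83 in H1493HT, 9.94, 9.90 and 9.96 in H1493LT, and 9.55, 9.53 and 9.60 in Co27LT. It followed the order of U2AF35A with a narrower range. NMCP1A, a protein of the plant nuclear lamina, had means of 8.30 ± 0.35 in Co27HT, 9.37 ± 0.15 in H1493HT, 10.67 ± 0.05 in H1493LT and 10.58 ± 0.15 in Co27LT (SD, n = 3). Among floral regulators, MADS14, a meristem identity gene of the APETALA1 class, read 7.35, 7.27 and 7.18 in Co27HT, 8.71, 8.05 and 8.39 in H1493HT, 9.48, 9.75 and 9.72 in H1493LT, and 10.13, 10.45 and 10.38 in Co27LT. LOC_Os04g38780, described as a transcription factor and matched to the Arabidopsis MADS-box gene AGL16, had means of 8.04 ± 0.29, 9.29 ± 0.20, 11.07 ± 0.02 and 10.95 ± 0.08 in the order Co27HT, H1493HT, H1493LT and Co27LT.

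**Figure D2:**
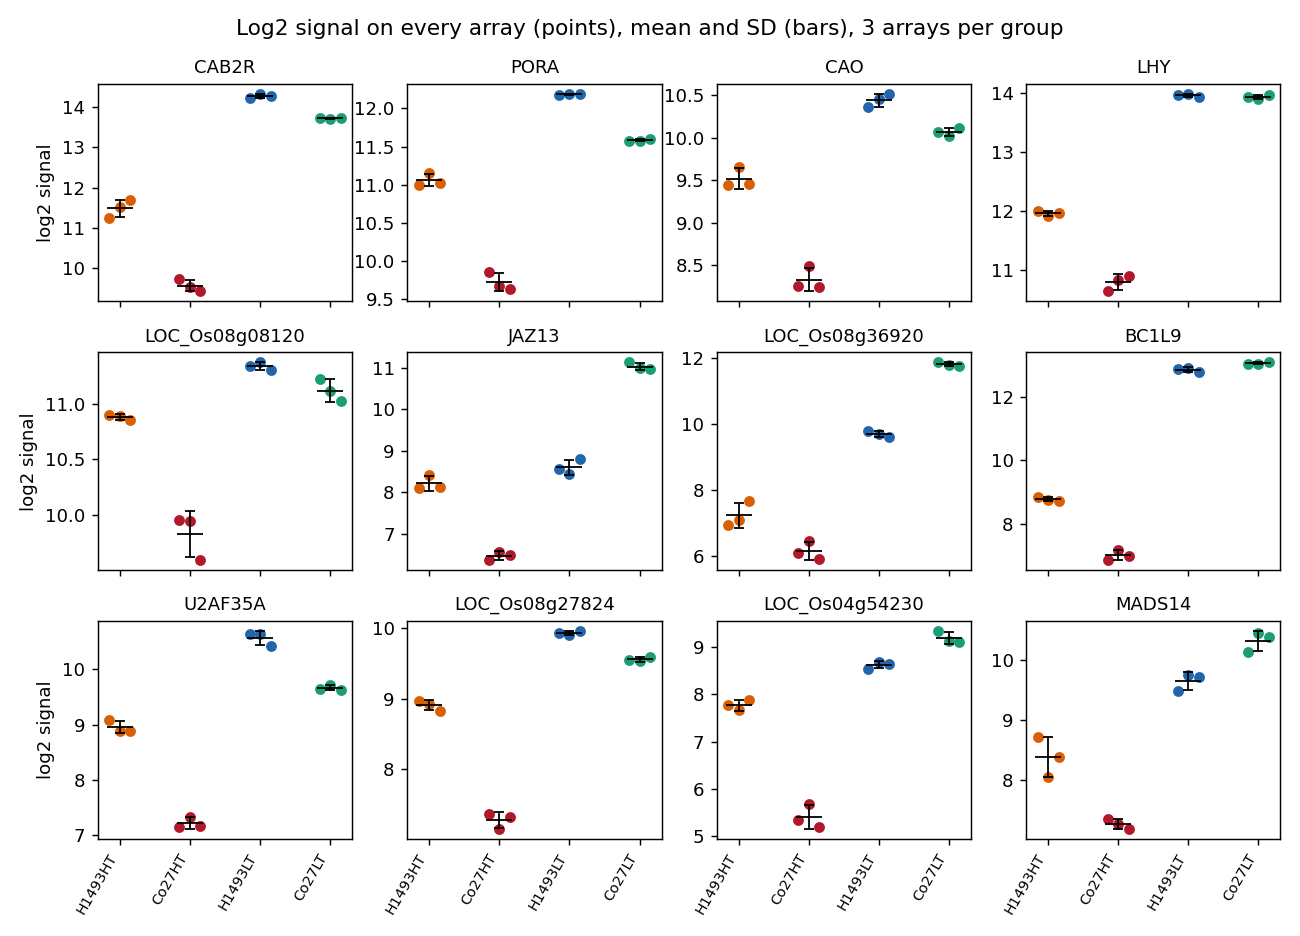
Log2 signal on every array (points) for 12 named members, by group, with the mean and SD of 3 arrays (black); each panel has its own y axis, which does not start at 0. Co27HT is lowest in each panel, and the order of the 2 low-temperature groups differs between genes: Co27LT is above H1493LT for JAZ13, LOC_Os08g36920, LOC_Os04g54230 and MADS14 and below it for CAB2R, PORA, CAO and U2AF35A.

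Some of the largest gaps belonged to probe sets with no described function. LOC4333004 is covered by 4 of the 88 probe sets, which are for 1 gene on the same arrays and do not count as 4 genes. Whether these 4 probe sets share probes was not checked. Their Co27HT means were 10.11, 8.41, 8.68 and 10.22 and their H1493HT means 12.00, 10.21, 10.35 and 11.73, so the H1493HT level was 2.86-fold to 3.70-fold higher. In all 4 the Co27LT mean was lower than that of H1493LT, by 0.53 to 0.87. LOC4326913 is covered by 2 probe sets, with Co27HT means of 6.43 and 7.02, H1493HT means of 8.16 and 8.44 and H1493LT means of 10.29 and 10.32.

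LOC4342135 and LOC4330608 rose 6.78-fold and 4.29-fold in the wild type at low temperature (limma, adjusted p = 4.1e-07 and 5.0e-07). LOC_Os03g59090, described as an unclassified retrotransposon protein, had means of 7.88 in Co27HT, 9.33 in H1493HT, 10.39 in H1493LT and 10.13 in Co27LT. The largest gap of all was that of a probe set which carries no gene here. It read 5.73, 5.58 and 3.31 in Co27HT, where it was called present on no array, 8.78, 8.59 and 8.66 in H1493HT, 10.98, 11 and 10.96 in H1493LT, and 13.10, 13.12 and 13.13 in Co27LT. Its difference of 2.13 between Co27LT and H1493LT was not called in the fit of all 12 arrays (limma, adjusted p = 0.11), whose spread estimate includes the SD of 1.36 in Co27HT, and was called in 5 of 21 other settings.

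The differences between the lines at low temperature and between temperatures in the wild type do not involve the Co27HT means. The limma fit still estimated its spread over all 12 arrays, those of Co27HT included. Co27LT, H1493LT and H1493HT also entered the rule, each with a mean of at least 7 and at least 1 unit above Co27HT. Counts of members called in either comparison therefore describe the set and are no independent support. Between the lines at low temperature, 3 of 88 members (3.41%) were called higher in Co27LT and 1 (1.14%) was called lower, at an adjusted p under 0.05 and a fold of at least 2, against 0.446% higher and 0.252% lower over all 57194 probe sets and 0.555% and 0.295% over the 19633 with the 3 fertile means at 7 or more. The other 84 were not called, 60 members differed by less than 0.5, and the median difference was -0.09, beside -0.01 over all probe sets. Differences ranged from -1.15 to 2.43. Every Co27LT array lay above every H1493LT array for 18 members and below for 37. The share of all probe sets separated in this way was not counted, so both numbers only describe the members. Without Co27HT replicate 3 the number called higher was 4. The number called lower was 0 without Co27HT replicate 2 and also without any 1 array of H1493HT, H1493LT or Co27LT.

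In the wild type, 44 of 88 members (50%) were called higher in H1493LT than in H1493HT, against 5.34% of all probe sets and 9.0% of the 19633. None was called lower, against 6.24% and 7.62%. The count was the same at 0 with an unadjusted p under 0.05 and that fold, and it was 1 with a floor at a log2 signal of 5, with the 6 arrays compared or without Co27HT replicate 2. The median difference was 1.03, beside -0.07 over all probe sets, and 86 of 88 members had a positive one. Both groups also entered the rule, which kept each of them at least 1 unit above Co27HT and so limited how far a member could be lower at low temperature. The count is therefore a description of the set and no independent support.

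**Figure D3:**
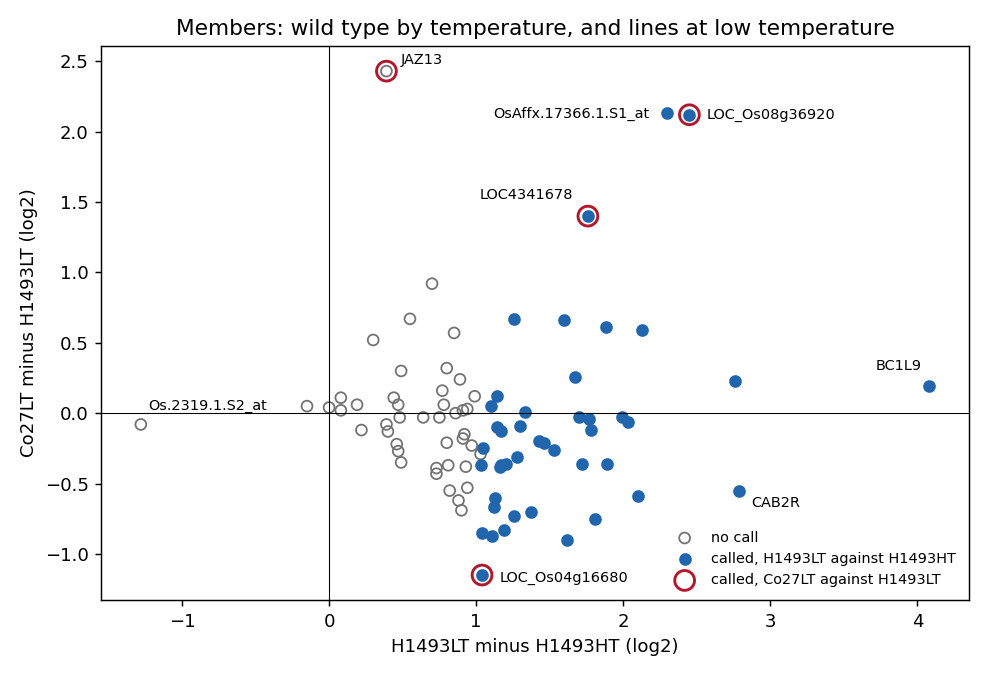
Each of the 88 members by its difference between temperatures in the wild type (x axis, H1493LT minus H1493HT, log2) and between lines at low temperature (y axis, Co27LT minus H1493LT, log2). Filled points are the 44 called higher in H1493LT than H1493HT and red rings the 4 called between the lines at low temperature.

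The graded profile was not common to all: 17 of the 88 members differed by less than 0.5 between H1493LT and H1493HT, and 44 were not called there. JAZ13 is one of the 17. LOC_Os10g21940, with means of 9.05 in Co27HT and 10.35, 10.43 and 10.45 in H1493HT, H1493LT and Co27LT, LOC_Os01g07070, described as a transposon protein, with 6.32 against 7.5, 7.5 and 7.54, and LOC_Os05g01140, a methyltransferase gene with 6.87 against 8.18, 8.26 and 8.36, were examples that were nearly level in the fertile groups, and the first of these was picked here after its values were seen. A probe set without a gene had the most negative wild-type difference, -1.28, with 8.41 in H1493HT, 7.13 in H1493LT, 7.05 in Co27LT and Co27HT arrays at 5.54, 3.76 and 6.65. Its highest Co27HT array was only 0.07 below the lowest other array.

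Other probe sets of the same genes give a second view of these transcripts on the same arrays and RNA. Whether they share probes with the members was not checked. Of the genes with members in the array's annotation, 20 had 28 further probe sets, and 14 of these, for 11 genes, had means of at least 7 in the 3 fertile groups. In 9 of the 14 Co27HT was the lowest group, in 8 by at least 0.5, against 32.3% and 5.11% of the 19545 other probe sets at that level. For CAB2R the second probe set had means of 10.01 ± 0.17 in Co27HT, 10.99 ± 0.11 in H1493HT, 13.50 in H1493LT and 12.44 ± 0.03 in Co27LT. For NMCP1A 2 further probe sets had gaps of 0.69 and 0.76 to H1493HT, and for LOC4329409 and LOC4346462 the gaps were 0.61 and 0.80. For BC1L9 a dimmer probe set had 4.07 ± 0.59 in Co27HT, 6.51 ± 0.23 in H1493HT, 10.97 ± 0.04 in H1493LT and 11.16 ± 0.04 in Co27LT.

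LOC4323890, LOC4335329 and LOC_Os10g41560 also had a probe set at that level with Co27HT lowest, by 0.87, 0.71 and 0.56, and LOC4325314 had one by 0.38. Among the 14 dimmer probe sets Co27HT was lowest in 8, among them one of LOC4333004 (4.77 against 6.40 in H1493HT) and one of LOC_Os08g36920 (2.22 against 3.52), which was called present on 2 of the 12 arrays. The 8 also hold one of LHY, lowest by 0.05 and called present on 0 arrays. Another is of LOC_Os08g08120, at 3.80 ± 2.42 in Co27HT (SD, n = 3) and called present on 3 arrays. The share over all probe sets below that level was not counted, so the 8 are only a description.

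For some member genes, other probe sets did not have Co27HT lowest. For MADS14, 3 brighter probe sets were nearly flat: Co27HT and H1493HT means were 11.92 and 12.09, 10.87 and 11.03, and 11.21 and 11.13, where the member had 7.27 and 8.39. For LOC_Os05g01140 a brighter probe set had 11.33 in Co27HT and 11.21 in H1493HT, and for LOC_Os01g07070 one had 10.55 and 10.17. For HSFB2C 1 further probe set had 9.04 in H1493HT, 6.13 in Co27HT and 3.93 and 3.90 in the low-temperature groups. Another HSFB2C probe set had 6.65, 5.48, 6.84 and 5.54 in H1493HT, Co27HT, H1493LT and Co27LT. There Co27HT was lowest, but by only 0.05. Dimmer probe sets of LOC4325314 (6.67 in Co27HT and 6.59 in H1493HT), LOC9271675 (6.69 and 6.53) and LOC_Os01g07070 (5.70 and 5.36) did not have Co27HT lowest either. A different dimmer probe set of LOC9271675 did, by 0.24. Those of LOC_Os03g43684 and LOC_Os04g38780 did not, and were called present on 0 arrays. For MADS14, LOC_Os05g01140 and LOC_Os01g07070 a level lowest in Co27HT was thus seen in the member alone, and which transcripts each one detects was not tested.

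**Figure D4:**
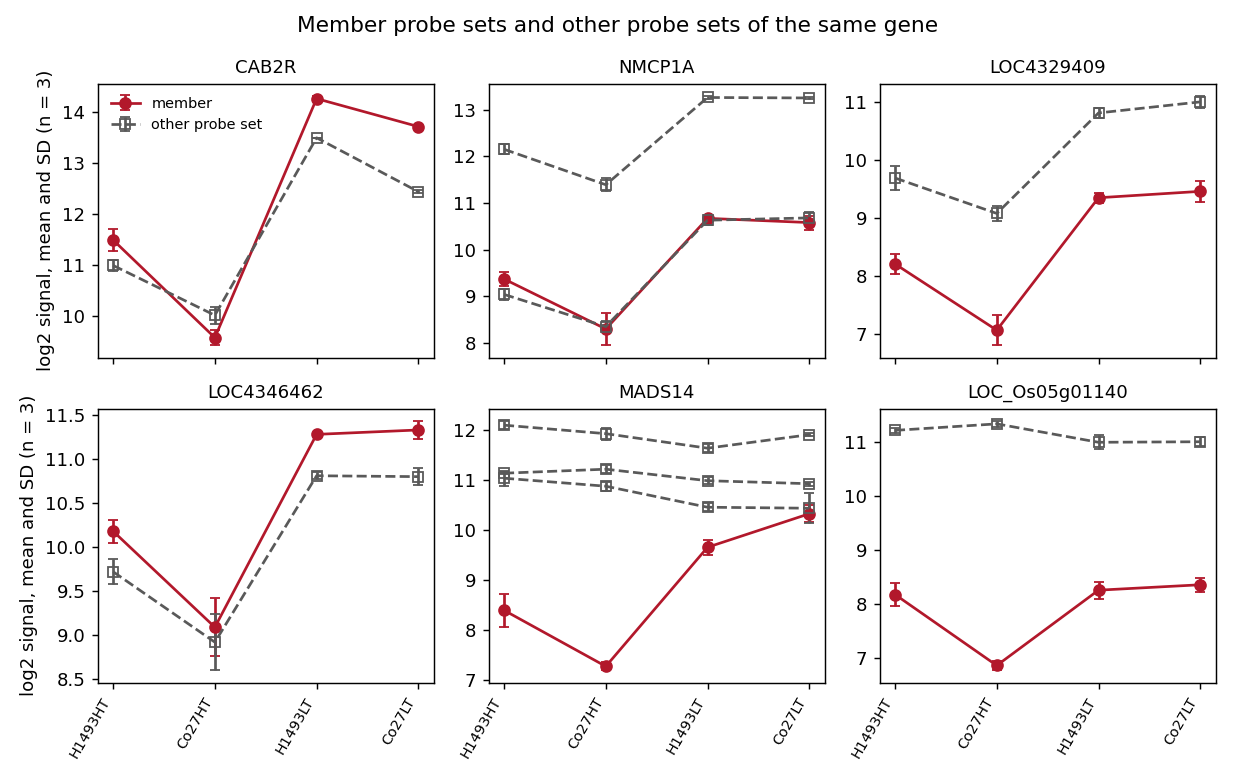
Group means and SD (n = 3, log2 signal, own y axis per panel, not starting at 0) of the member probe set (red) and of other probe sets of the same gene with fertile means of at least 7 (grey dashes). CAB2R, NMCP1A, LOC4329409 and LOC4346462 share the dip in Co27HT, and MADS14 and LOC_Os05g01140 do not.

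The gene lists hold 105 measured genes that are no members. Of these, 1 was called higher in Co27HT than in H1493HT and 0 lower (limma). The shares called higher and lower were 0.254% and 0.400% of all probe sets, and 0.0815% and 0.535% of the 19633. At an unadjusted p under 0.05 with the fold, 2 list genes were higher and 1 lower. The list genes that met the rule, CAB2R, PORA and CAO among them, had been left out as members. Both sets of shares still include the members. The rule thus limited the counts of list genes lower in Co27HT, and those counts cannot be compared with the shares. The mean was lower in Co27HT for 53 of the 105, but the lists differed: it was lower for 9 of 10 meiosis genes (median difference from H1493HT -0.39), 3 of 3 leaf genes (-0.56), 10 of 16 JAZ genes (-0.12), 4 of 6 clock and B-box genes (-0.15) and 5 of 9 DNA repair genes (-0.17), and for 2 of 4 chlorophyll genes (-0.06), 0 of 4 splicing genes (0.09), 4 of 12 cell wall genes (0.08), 5 of 13 RNA silencing genes (0.05), 3 of 6 UDP-glucose, sucrose and callose genes (0.07), 7 of 13 tapetum and pollen wall genes (-0.03) and 4 of 13 floral identity genes (0.07). No gene but a JAZ2 gene, LOC4342421, was called. The lists overlap: MSH5, DMC1A and MER3 count under both meiosis and DNA repair, and MEL1 under both meiosis and RNA silencing. The share of all probe sets with a lower mean in Co27HT was not counted, and their median difference from H1493HT was 0.03. In the wild type between temperatures, 1 of 4 further chlorophyll genes was called higher in H1493LT and 0 lower, with a median difference of 0.84. Of 6 further clock and B-box genes 1 was higher and 3 lower (median -0.90). Of 12 cell wall genes none was called in either direction (median 0.23), and of 4 splicing genes none (median -0.07).

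The gene called in Co27HT was LOC4342421, a JAZ repressor like JAZ13 that carries the symbol JAZ2. Another list gene with the same symbol was not called. LOC4342421 had means of 8.97 ± 0.17 in Co27HT, 4.45 ± 0.60 in H1493HT, 11.33 ± 0.09 in Co27LT and 5.90 ± 0.40 in H1493LT (SD, n = 3). It was thus higher in both groups of TGMS-Co27, by 4.51 ± 0.29 at high temperature (limma, adjusted p = 0.00021). Of the 16 JAZ genes that are no members, 3 were called higher and 0 lower in Co27LT at low temperature (median 0.65), and in the wild type 2 were higher and 1 lower at low temperature.

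Among the other lists, 2 of 9 DNA repair genes were called higher in H1493LT and 0 lower (median 0.61), 2 of 13 RNA silencing genes higher and 1 lower (0.11), 0 of 6 UDP-glucose, sucrose and callose genes higher and 1 lower (0.11), 0 of 13 tapetum and pollen wall genes higher and 3 lower (-0.35), 1 of 10 meiosis genes higher and 0 lower (0.40), 0 of 13 floral identity genes higher and 1 lower (-0.08), and 0 of 3 leaf genes higher and 1 lower (-1.13). Between the lines at low temperature, 2 of the 13 tapetum and pollen wall genes were lower in Co27LT, and no gene of the other lists but the JAZ genes was called.

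Of the marker lists, the floral organ genes were detected throughout. All 7 floral organ genes were called present on all 12 arrays, with a summed log2 signal of 15.07 to 15.15 in Co27HT and 15.00 to 15.11 in H1493HT. The 7 measured meiocyte genes summed to 13.02 to 13.12 in Co27HT and 12.96 to 13.07 in H1493HT, and to 13.73 to 13.76 in H1493LT and 13.65 to 13.67 in Co27LT. MEL1, the brightest of them, was 12.67 ± 0.08 in Co27HT and 12.45 ± 0.08 in H1493HT, while the other 6 had lower means in Co27HT, with differences of -0.34 for DMC1A to -0.60 for PAIR1, none of them called (limma). PAIR1 was called present on no Co27HT array. Between the wild-type groups DMC1A was 7.93 in H1493LT and 7.86 in H1493HT. The part of these genes' cells in the members' levels was not tested. The 6 tapetum genes summed to 11.11 to 11.35 in Co27HT, 11.38 to 11.44 in H1493HT, 11 to 11.11 in H1493LT and 10.63 to 10.73 in Co27LT. CYP703A3, a cytochrome P450 of pollen wall synthesis, was 7.22 ± 0.45 in Co27HT and 8.32 ± 0.35 in H1493HT (limma, adjusted p = 0.061). PTC1 and C6, both tapetum markers, were called present on 3 and 4 of the 12 arrays, and the number of tapetum genes called present on no array of a group was 1 in H1493HT, 0 in Co27HT, 1 in H1493LT and 2 in Co27LT.

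Leaf markers bear on the photosynthesis genes. With CAB2R, itself a member, the 3 measured leaf genes summed to 10.96 to 11.15 in Co27HT and 11.96 to 12.28 in H1493HT. Without it the sums were 10.34 to 10.57 and 10.59 to 10.73, and 9.99 to 10.26 in H1493LT and 9.44 to 9.59 in Co27LT. RBCS, the small subunit of Rubisco, was 10.14 ± 0.10 in Co27HT and 10.27 ± 0.01 in H1493HT, and RCA, Rubisco activase, was 8.03 ± 0.30 and 8.59 ± 0.31 (limma, adjusted p = 0.68 and 0.17). All 3 leaf list genes that are no members had a lower mean in Co27HT, and their part in the photosynthesis members was not tested. The 3′ to 5′ signal difference of the actin control, which rises as RNA breaks down, was 2.75 to 3.65 (log2) in Co27HT, 3.29 to 3.36 in H1493HT, 2.82 to 3.10 in H1493LT and 2.72 to 2.90 in Co27LT. Its part in the members' levels was not tested.

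At the edge of the rule, the members just inside the gap of 1 were LOC_Os10g41560, Os02g0602150 and LOC4325314, the last 2 with a smallest gap of 1.002. Just outside were a probe set without a gene at 0.998 and LHCP and OSA15, each at 0.997. LHCP is another chlorophyll a/b-binding protein gene, with 10.63 in Co27HT and 11.62 in H1493HT. Just inside the level of 7 were LOC_Os02g26810, a cytochrome P450 gene, at 7.03, and 2 probe sets without a gene. Just outside were a probe set of Rubisco activase at 6.98, with 4.75 in Co27HT and 6.98 in H1493HT, LOC_Os02g45490 at 6.97 and a probe set without a gene at 6.94.

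The non-member probe sets whose profile over the 12 arrays was most like the mean member profile had a Pearson r of 0.994 to 0.996, where the 4 group levels make up most of the variation. They included LOC_Os03g62640, an RNA-binding Luc7-like protein, at 8.91 in Co27HT, 9.62 in H1493HT, 10.21 in H1493LT and 10.13 in Co27LT, and LOC_Os03g40010, a DEK domain protein, at 11.76, 12.52, 13.10 and 13.09 in the same order. The others were LOC_Os01g31360, LOC_Os10g15390, a ribosomal protein S7 gene, and 2 probe sets without a gene. Their smallest gaps, 0.67 to 0.98, fell short of the rule. Single members correlated with that mean profile at a median r of 0.97 and a lowest r of 0.53.

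The same rule turned to other groups took 12 probe sets low only in H1493HT, 20 low only in H1493LT and 69 low only in Co27LT. Of the 19633 probe sets with fertile means at 7 or more, 116 had an H1493HT mean at least 1 above that of Co27HT, and 89 of these, Ugp1 among them, also had both low-temperature means that far above. Ugp1 itself stood at 11.40 ± 0.04 in Co27HT, 13.40 ± 0.04 in H1493HT, 13.61 ± 0.03 in H1493LT and 12.89 ± 0.03 in Co27LT. The 54 genes assigned to members lie on 10 of the 12 chromosomes, with 9 on chromosome 3 and 8 each on chromosomes 2 and 4. These are 16.7%, 14.8% and 14.8% of the 54. Of the measured genes at that level, 14.6%, 12.6% and 8.47% lie on chromosomes 3, 2 and 4. None of the 54 lies on chromosomes 11 or 12, where 4.18% and 4.91% of the measured genes at that level lie. Median centring of the arrays, under which the median of all probe sets is 0.08 lower in Co27HT than in H1493HT instead of 0.03 higher, raised the number of members from 88 to 153, with 84 of the 88 among them.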

How the data were processed

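The authors deposited a log2 signal and a detection call per probe set, made with Affymetrix GeneChip Operating Software (MAS 5.0), and the methods name quantile normalization. On the linear scale the trimmed mean was 500.1 for each array, but distributions differed between arrays, so the values were used as deposited. Present calls ranged from 25032 to 26373 per array. Of 57381 probe sets, 187 controls (123 AFFX and 64 RPTR) were left out. The series value table holds the same 688572 values.

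Group means were fitted to all 12 arrays with limma 3.58.1 in R 4.3.3 (lmFit, contrasts.fit and eBayes), with Benjamini-Hochberg adjustment over 57194 probe sets; a call needs an adjusted p under 0.05 and a fold of at least 2, and 95% intervals use the fit's 8.99 degrees of freedom. The number of arrays limits the precision.

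Genes were named through the array's annotation, updated through the RefSeq table, and loci, descriptions and Arabidopsis matches from the supplementary tables, which cover only part of the probe sets. List genes were matched by symbol, and 2 lists without symbols (tRNA and chromatin) gave no count. A gene is represented by its brightest probe set. Named genes are the 15 members with an assigned gene and the largest smallest gap, list members and up to 6 per direction among those called. Members whose gene has another probe set at that level and the edge of the rule were named too. CAO was added to the chlorophyll list as the table's symbol for CAO1. Further members (LOC_Os03g19560, LOC_Os04g33830, LOC_Os07g48570, LOC_Os09g11460, LOC_Os04g38780, MRS2-A, HSFB2C and DAO) were chosen after their values were seen. The members and lists were chosen with earlier results of these data known. The authors' comparison columns were not used. Probe and promoter sequences were not used here.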

Additional observations from a re-analysis of the deposited data

How the results depend on the processing

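The number of members was 88. It was 153 with median centring, 973 and 15 with a gap of at least 0.5 and 1.5, 137 and 56 with means of at least 6 and 8, and 73 to 129 without 1 array. It stayed within 1.5 times of 88 with quantile normalization, a floor at 5, no condition on single arrays, the _x_at and _s_at probe sets left out and, chosen after seeing the data, 1 probe set per gene. Members higher in H1493LT than in H1493HT numbered 44, or 70 with no condition on the fold and 43 to 50 without 1 array; the median difference was 1.21 with median centring and 0.99 to 1.08 without 1 array. Members lower there numbered 0, or 1 with a floor at 5 and with the 6 arrays compared, and 0 to 1 without 1 array. Members higher in Co27LT than in H1493LT numbered 3, or 8 with no condition on the fold and 3 to 4 without 1 array. Members lower numbered 1, or 0 with quantile normalization, median centring or the replicate block, 11 with no condition on the fold and 0 to 1 without 1 array; the median difference was -0.12 to -0.07 without 1 array. Of the list genes that are no members, 1 was called between the lines at high temperature, 2 with a floor at 5, with limma-trend and robust moderation or with only probe sets of mean 6 or more, 3 at an unadjusted p, and 1 to 3 without 1 array. These list alternatives, and those of the other probe sets, of which 9 had Co27HT lowest, were chosen after seeing the data.

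Replicate numbers are shared by the groups, but nothing states that they mark a shared plot or day. Deviations of same-numbered arrays correlated at -0.10 to 0.04 between groups and those of different numbers at -0.04 to 0.12, so the numbers were not taken to pair the arrays. With the replicate number as a block, 44 members were higher in H1493LT than in H1493HT and 3 higher in Co27LT than in H1493LT.

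The limits are those of 3 arrays per group and of signals near background: 37 members had a Co27HT mean under 7 and 6 under 6, where a log2 difference is not an exact size.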
